A study of Mus musculus with 4 samples.

Results

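Gene expression in the jaw of newborn *FoxO6*-/- mice was set against that of wild type (WT) mice on Affymetrix mouse genome arrays, with 1 array per genotype for mandible and maxilla tissue. The members are the genes measured in that tissue. Where several probe sets were annotated to a gene and to no other, the brightest on average over the 4 arrays of the study stood for it. Genes were kept when the average of both jaw signals reached a floor of 101, which is the median signal of all non-control probe sets. Of 18193 genes with a named probe set, 12186 met this rule. The labels give postnatal day 0 for all arrays, whereas the paper describes E18.5 jaw tissue in its results and embryos in its methods. RNA of 4 animals was pooled for each jaw array. The mutants carry a replacement of the *FoxO6* coding region by a LacZ-Neo cassette, made in C57BL/6 embryonic stem cells and kept on C57BL/6, in every cell of the body, and according to the methods the mutant group could include heterozygotes besides null animals. The other arrays of the study hold brain of *FoxO6*-/- and WT animals, also 1 array each, and are used here to tell jaw from neural tissue. Because each group is 1 array, every difference compares 1 pool with another, has no test and no replicate check.

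FoxO proteins are forkhead transcription factors that bind DNA in the nucleus and are moved out of it when insulin or growth factor signaling activates the kinase AKT. FoxO6 differs from its paralogs in staying largely nuclear under this signal, and it was first known from the brain. The newborn jaw joins several tissues, namely teeth with enamel-forming ameloblasts and dentin-forming odontoblasts, membranous bone, Meckel's and nasal cartilage, chewing muscle, skin with hair follicles, and the stratified lining of the mouth, and dissection can add nasal lining with its olfactory neurons. In such a sample fewer cells of a type and less RNA per cell cannot be told apart.

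The tissue labels were checked against defining genes. The dentin gene Dspp had signals of 2346 and 1597 on the *FoxO6*-/- and WT jaw arrays, but only 2.94 and 1.98 in brain, and the enamel gene Ambn had 5565 and 3746 against 66.3 and 44.7. Tooth tissue was therefore present on both jaw arrays and nearly absent from both brain arrays. The brain arrays were not purely neural, since the bone collagen gene Col1a1 had 9307 and 11231 and the skin keratin gene Krt10 14898 and 11231 on them. No probe set carries the name Foxo6 in the annotation used, so the deleted gene was not checked. The ratio of 3' to 5' signal of the control probe sets, which rises when RNA is shorter or less completely labelled, was 3.37 on the *FoxO6*-/- and 2.23 on the WT jaw array for Actb, and 1.95 and 1.44 for Gapdh. Its part in the differences was not tested.

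Most genes had similar signals on the 2 jaw arrays. Over the measured genes, the log2 of the *FoxO6*-/- signal divided by the WT signal, here called the log2 ratio, had a median of -0.01 and an SD of 0.40, and 85.8% of them lay within 0.5 of 0. At least 2-fold higher signals on the *FoxO6*-/- array were found for 72 genes, or 0.591% of those measured, and at least 2-fold lower signals for 206 genes, or 1.69%. These shares are the background for the counts in single tissues. The division of the 278 genes depended on scaling, since 25.9% of them were higher with the deposited values, 44.0% of the genes past 2-fold after quantile normalization and 48.8% after median centring. Median centring adds 0.13 to every log2 ratio. The signals were low for many of these genes, and 209 of the 278 had a mean jaw signal under 524, the 75th percentile of all signals.

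The genes were grouped by how their jaw signal compared with their brain signal. Of the 72 higher genes 32, and of the 206 lower genes 112, were within 2-fold between the tissues. Of 335 genes whose jaw signal was over 4-fold above their brain signal, 284 were higher on the *FoxO6*-/- jaw array, 30 of them at least 2-fold, and 9 were at least 2-fold lower. Their median log2 ratio was 0.49. Among 267 genes with a brain signal over 4-fold above the jaw signal, 190 were lower, 43 at least 2-fold and none at least 2-fold higher, with a median of -0.34. The 10380 genes within 2-fold between the tissues had a median of -0.00715, of which 32 were higher and 112 lower by 2-fold or more. Genes with a jaw signal 2- to 4-fold above brain, 711 in all, did not share the shift of the most jaw-specific genes and had a median of -0.027, with 7 higher and 28 lower by at least 2-fold. The tissue classes use the mean of the same jaw signals, so they are not independent of the log2 ratio.

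**Figure D1:**
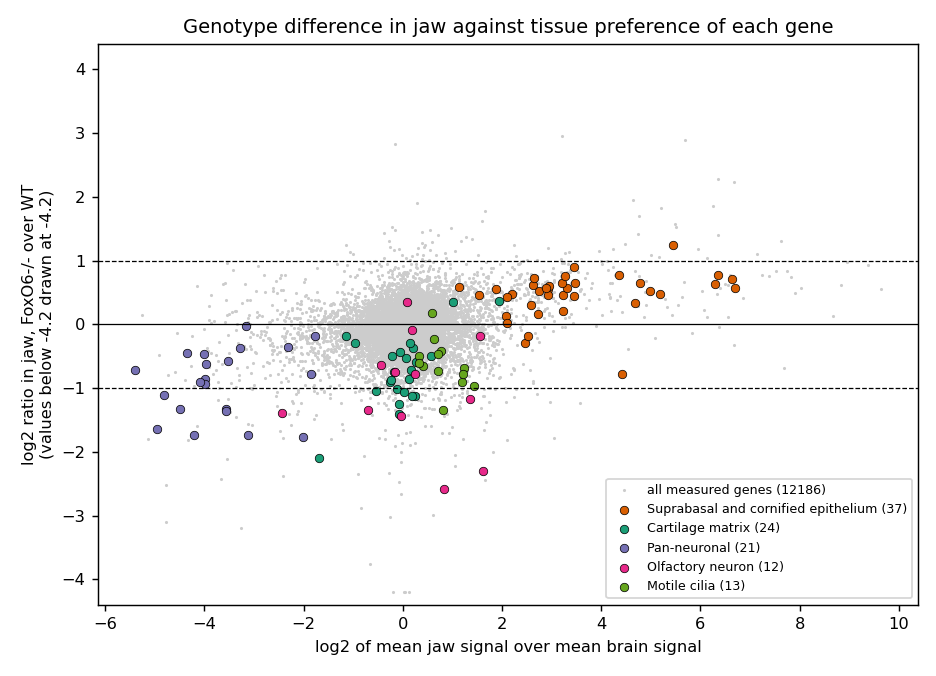
Log2 ratio of *FoxO6*-/- over WT in mandible and maxilla (vertical axis) against the log2 of the mean jaw over the mean brain signal (horizontal axis) for 12186 genes, with 1 array per group. Genes of cornified epithelium lie to the right and mostly above 0, pan-neuronal genes to the left and below 0, and cartilage, olfactory and ciliary genes between them and mostly below 0. Dashed lines mark a 2-fold difference, and ratios below the axis are drawn near its lower edge.

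**Figure D2:**
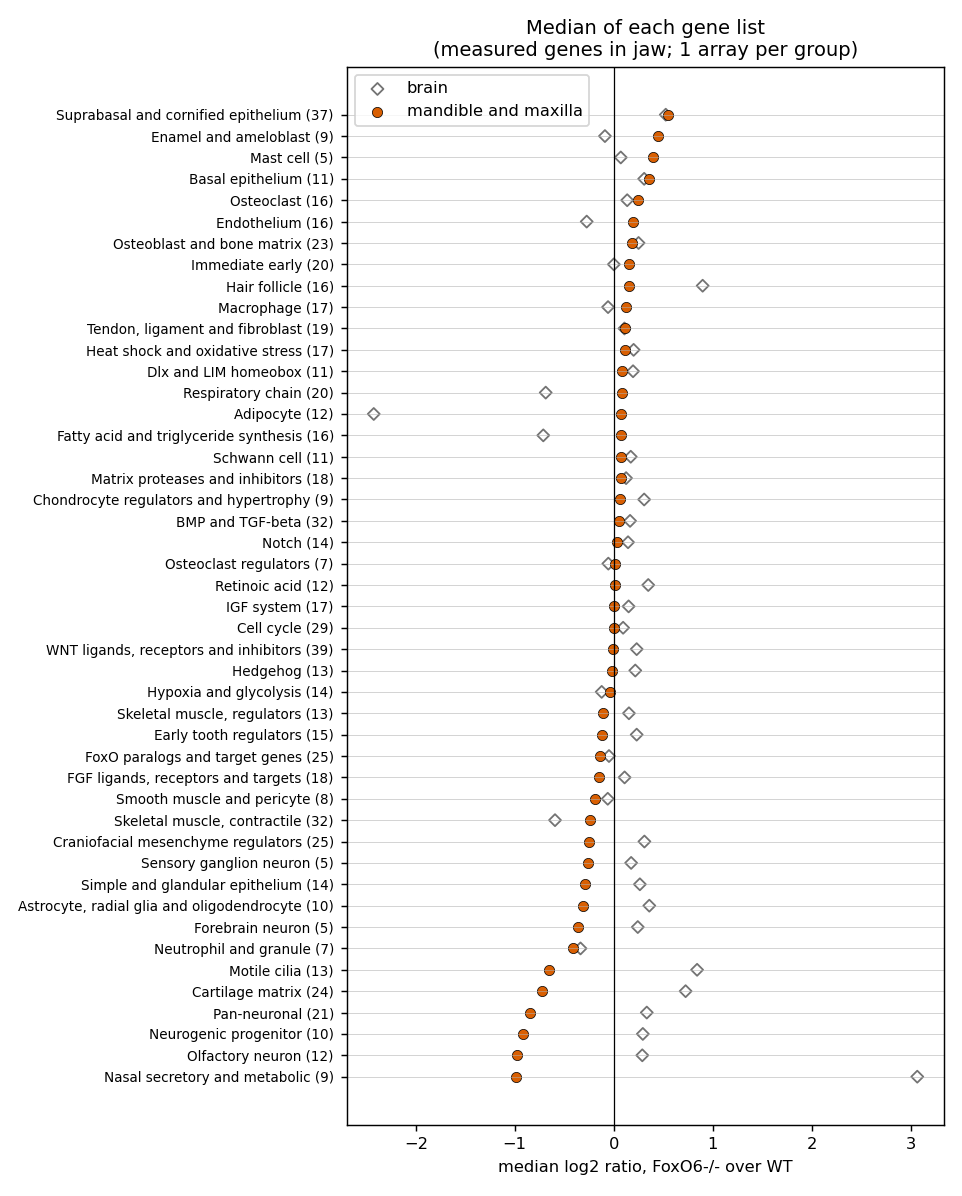
Median log2 ratio of *FoxO6*-/- over WT of each gene list with at least 5 measured genes in mandible and maxilla (filled circles) and of its members measured in brain (open diamonds), with the number measured in jaw in brackets. Cornified epithelium lies highest in jaw at 0.55 and the nasal secretory list lowest at -0.99, where the brain median is 3.07.

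Stratified epithelium, the layered lining of skin and mouth, had higher signals on the *FoxO6*-/- jaw array for nearly all of its genes. Of 37 measured genes of suprabasal and cornified layers 34 were higher, 1 of them at least 2-fold, and the median log2 ratio was 0.55, against -0.01 over all genes. It was 0.41 after quantile normalization. The brain arrays, which also carried skin signal, had a median of 0.53 for the same list. The list summed to 324144 on the *FoxO6*-/- and 226344 on the WT jaw array. Among the keratins of the mouth lining, Krt4 had 27221 against 17328 and a log2 ratio of 0.65, and Krt76, typical of the hard palate, had 1043 against 637 and 0.71. Krt16, a keratin of fast-growing epithelium, had 655 against 382 and 0.78. The 5 keratins of this kind that were measured, with Krt13 and Krt6a, were all higher, with a median of 0.65 that was 0.36 after quantile normalization. Keratins of body skin were mixed, with 0.48 for Krt1 and 0.46 for Krt10 but -0.29 for Krt77 and -0.77 for Krt2, which had 165 against 282. The median of these 4 was 0.085, and -0.093 after quantile normalization. This division was made after the values were seen.

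Of the early precursors of the cornified envelope, the protein shell of the dead outer cells, 7 measured genes were all higher, with a median of 0.62. This group was also put together after the values were seen. Sprr2h, a small proline-rich protein gene, had 259 on the *FoxO6*-/- array and 109 in WT, and Sprr3 had 7179 and 4178. The late protein loricrin, Lor, had 27567 and 19948, a log2 ratio of 0.47, with 0.42 to 1.20 over 3 probe sets. The basal layer, which attaches the epithelium and holds its dividing cells, had a smaller median. Of 11 basal genes 9 were higher, with a median of 0.36, from -0.22 for the integrin gene Itgb4 to 0.74 for Krt14 (7988 against 4782), and the epithelial master regulator Trp63 had 0.36 and 0.31 from its probe sets.

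Defence and barrier genes were also among the at least 2-fold higher genes. Of 25 measured antiprotease and antimicrobial genes 19 were higher, 7 of them at least 2-fold, and 6 were lower, down to -0.42 for the serpin gene Serpinb6e, with a median of 0.57. The antiprotease and antimicrobial, interleukin 36 and kallikrein families were put together after the values were seen. The first of them takes in Lyg1 and Serpina12 as single genes that were past 2-fold. The counts of these families are therefore not independent of the values. The genes named here were also chosen after their values were seen, apart from Lyg1 and Wfdc21, which were among the 30 genes with the highest log2 ratios. Slpi, a secreted inhibitor of leukocyte proteases, had 3485 against 1451, a log2 ratio of 1.26. The related inhibitor genes Wfdc21 and Wfdc12 had 604 against 238 and 203 against 85.7. Wfdc12 was brighter in brain, with 229 in *FoxO6*-/- and 406 in WT. Defb4, a beta-defensin, had 1420.5 against 692 and Lyg1, a lysozyme G, 309 against 87. The last 2 were low in brain, with 25.9 and 4 for Defb4 and 6.94 and 3.72 for Lyg1. Serpinb3a, a serpin of squamous cells, had 4429 against 2119. All 4 measured interleukin 36 family genes were higher, with 572 against 263 for Il1f6, which encodes IL-36 alpha, and 270.5 against 128 for Il1f8, which encodes IL-36 beta. Of 9 measured kallikrein genes, secreted proteases that act in skin shedding and saliva, 8 were higher and the median was 0.58, and Klk12 had 1.19. Klk1 had 1817 against 906 from its brightest probe set and log2 ratios of 0.37 to 1.11 over 4 probe sets. Mt4, a metallothionein of stratified epithelium, had 3086 against 1387 and Gjb5, a skin connexin, 246 against 112.

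Hair genes were divided between the shaft and its sheath. Of 11 measured keratins of the hair shaft all were higher, 4 of them past 2-fold, and the median log2 ratio was 0.76 (0.78 after quantile normalization). Krt36 had 1179.5 on the *FoxO6*-/- array and 306 in WT, Krt84 had 865 and 266, Krt34 had 1887 and 762 and Krt86 had 952 and 442. By contrast, the 6 keratins of the inner root sheath, which grips the growing shaft, lay between 0.00545 for Krt28 (641 against 639) and 0.21 for Krt71, with a median of 0.11. Keratin-associated proteins crosslink shaft keratins. Of 32 measured genes of this family 29 were higher, with a median of 0.55, from -0.68 for Krtap7-1 (371 against 596) to 2.24 for Krtap13 (1636 against 346). Krtap13-1 had 2213 against 768 and 1.53. Members of this family are near-identical, and a probe set may read several of them. The hair shaft and sheath groups and the whole keratin-associated family were put together after the values were seen, and the hair follicle list as a whole had a median of 0.16 over 16 genes with 13 higher and of 0.90 in brain. Lhx2, a regulator of hair stem cells that is also expressed in olfactory tissue and brain, was its lowest member with 415 against 1048. The 2 genes with the highest log2 ratios of all, the RIKEN clones 2310061N02Rik with 785 against 101 and 2310057N15Rik with 1200.1 against 161, had 65.4 and 15.5 on the *FoxO6*-/- brain array.

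Enamel genes, expressed by ameloblasts, were mostly higher. Enam, which encodes enamelin, had 458 on the *FoxO6*-/- jaw array and 172 in WT, and Amtn, which encodes amelotin of maturing enamel, 612 and 233. These 2 were the only genes of the list past 2-fold, with log2 ratios of 1.41 and 1.40. Ambn (ameloblastin) had 0.57, Amelx, the main enamel matrix gene, 0.48 from 2986 against 2144 and 0.071 from its other probe set, and Sp6, a zinc finger factor of dental epithelium, 0.45. The enamel protease gene Mmp20 and the junctional protein gene Odam were close to 0, with 0.20 and 0.15. Fam83h and Fam20a, both required for normal enamel and expressed outside teeth too, had -0.00562 and -0.30, and another probe set of Fam83h had -0.72. Over 9 measured genes the median was 0.45, and it was 0.27 with the mean of all probe sets. Klk4, the late enamel protease, was below the floor.

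Regulators of early tooth formation did not show the shift of the enamel genes. Of 15 measured members 4 were higher and 11 lower, none by 2-fold, with a median of -0.11 that was 0.019 after median centring. Wnt10a, a ligand of tooth epithelium, was the highest with 454 against 287 and 0.66, followed by Isl1 of incisor epithelium with 0.64 and 0.11 from its probe sets. The mesenchymal homeobox genes Lhx6 and Barx1 had -0.78 and -0.53, the stem cell factor Sox2 had 1258 against 1879 and -0.58, and Pax9 had -0.59 from its brightest probe set and 0.25 from another. Lhx6, Barx1, Sox2 and the higher gene Isl1 were on average brighter in brain than in jaw. Sox2 had 2749 in *FoxO6*-/- and 2387 in WT brain. Wnt10a and Pax9 were on average brighter in jaw. The paper describes Sox2 as slightly raised in *FoxO6*-/- embryos. Msx1 had -0.057 and -0.48 from its probe sets, and Sostdc1 0.040 and -0.041.

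Mineralized matrix genes were slightly higher. Of 23 measured genes of osteoblasts, osteocytes and odontoblasts 17 were higher, none by 2-fold, with a median of 0.18 (0.14 after quantile normalization). Dspp, the dentin sialophosphoprotein gene, had 2346 against 1597 and 0.55, Dmp1 had 10793 against 8695 and 0.31, and Mepe 214 against 139 and 0.62. Early osteoblast markers were close to 0, with 0.11 for the osteoblast factor Sp7, -0.030 for alkaline phosphatase (Alpl) and -0.085 for Col1a1. Homeobox genes Dlx5 and Dlx6, which pattern the lower jaw, were lower with 514 against 746 and 75.8 against 136. Dlx6 was below the floor on the *FoxO6*-/- jaw array. Both also had brain signal, with 598 in *FoxO6*-/- and 500 in WT for Dlx5 and 210 and 148 for Dlx6. The 11 Dlx and LIM homeobox genes had a median of 0.085.

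Most genes of osteoclasts, the cells that resorb bone, had higher signals. The protease gene Ctsk had 10486 on the *FoxO6*-/- array and 7327 in WT and Acp5, tartrate-resistant acid phosphatase, 3765 and 2712. The fusion genes Ocstamp and Dcstamp had 0.65 and 0.48. In all 12 of 16 genes were higher, none by 2-fold, with a median of 0.24, and the 4 lower members were Car2 (-0.011), Slc4a2 (-0.061), Clcn7 (-0.19) and the transcription factor gene Nfatc1, with -0.72 to -0.077 over 5 probe sets. Of the signals that drive osteoclasts, Tnfsf11, which encodes RANKL, had 233 against 154 and 0.60, and its decoy receptor Tnfrsf11b (osteoprotegerin) had 227 against 292 and -0.37. Csf1, the macrophage growth factor, had -0.41 from its brightest probe set and 0.057 at the highest of 3. General macrophage genes had a median of 0.12 over 17 genes, which was -0.11 with the second-brightest probe sets.

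**Figure D3:**
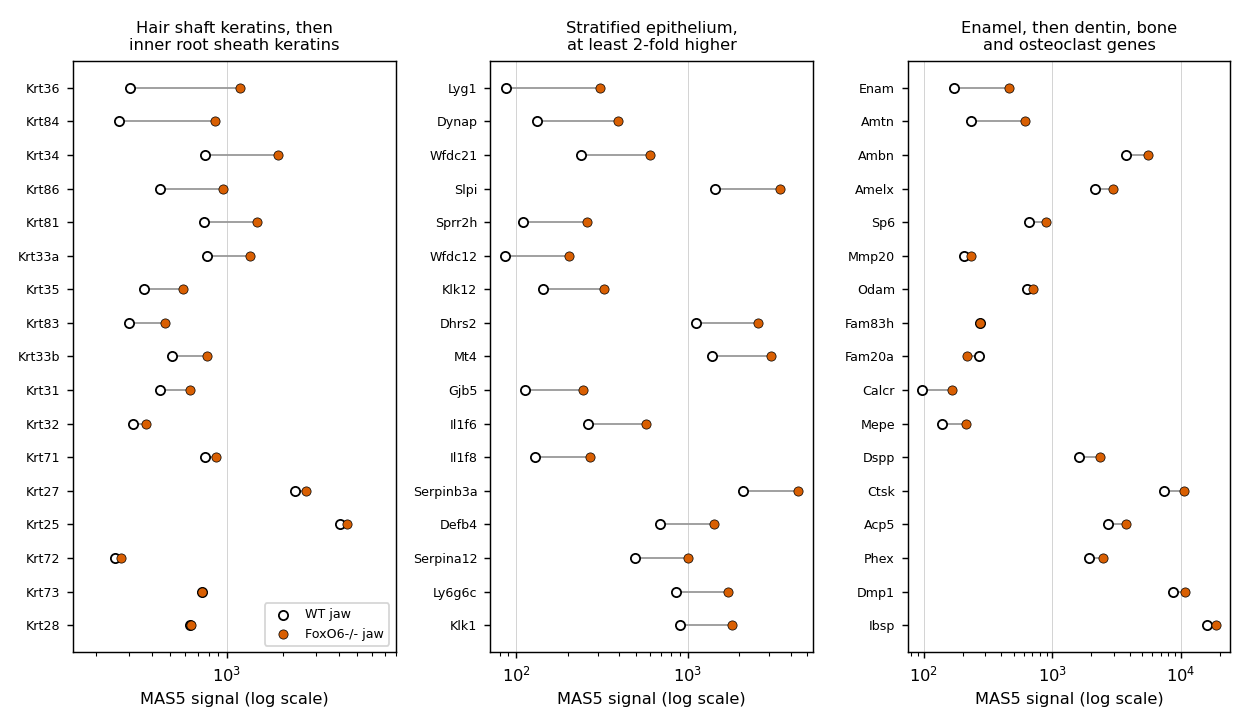
MAS5 signal (log scale) of single genes on the WT (open circles) and *FoxO6*-/- (filled circles) mandible and maxilla arrays, 1 array each. The hair shaft keratins from Krt36 to Krt32 are shifted to higher signals, whereas the inner root sheath keratins from Krt71 to Krt28 overlap or nearly so. Stratified epithelial genes in the middle panel were selected for being at least 2-fold higher, and the right panel shows all 9 measured enamel genes followed by genes of dentin, bone and osteoclasts.

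Cartilage matrix genes were lower on the *FoxO6*-/- jaw array. Of 24 measured members 22 were lower, 8 at least 2-fold, against 1.69% of all genes, and the median was -0.73. Cartilage proteoglycans, link proteins and matrilins had a median of -1.05 over 10 genes, 7 of them at least 2-fold lower. The 7 collagen chains of cartilage had -0.72 with 1 past 2-fold, and this division was made after the values were seen. Matn1 (matrilin 1) had 383 on the *FoxO6*-/- jaw array against 1644 in WT, and Epyc, a small proteoglycan, 1077 against 2557. Acan, the main proteoglycan of cartilage, had 1438 against 2906, and Hapln1, which links it to hyaluronan, 1579 against 3458, with -1.13 to -0.44 over 4 probe sets. Col2a1, the main cartilage collagen, had 6153 against 10283 and -0.74. Cytl1 and Fibin were the 2 higher members, with 0.36 and 0.35.

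On the brain arrays the same genes had the opposite difference, with a median of 0.73 over 24 genes, and Matn1 had 4724 in *FoxO6*-/- and 1823 in WT brain. The summed signal of the list was 48736 and 74195 on the *FoxO6*-/- and WT jaw arrays and 77294 and 44599 on the brain arrays. The SOX factors that activate these matrix genes were lower in jaw, with -0.55 for Sox9 (575 against 843), -0.77 for Sox6 and -1.05 for Sox5, and their other probe sets reached -0.23, -0.19 and -0.25. These SOX genes were not restricted to jaw. Sox5 was brighter in brain, with 581 in *FoxO6*-/- and 461 in WT. The log2 of jaw over brain signal was -0.011 for Sox9 and -0.18 for Sox6. The 6 other measured regulators and genes of late, hypertrophic cartilage lay between -0.19 for Mef2c and 0.42 for Pth1r from their brightest probe sets, and the 5 probe sets of Mef2c reached down to -0.87. Mmp13, the collagenase of that zone, had 5781 against 4609 and 0.33, and Pth1r, the parathyroid hormone receptor, 1717 against 1286 and 0.42.

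Muscle genes did not all differ in the same way. Contractile genes that are abundant before and around birth were near 0, with 17880.2 against 17897 for embryonic myosin Myh3 and 29689 against 28790.2 for perinatal myosin Myh8. Some genes of mature fast fibres were lower. The fast myosin Myh4 had 802 against 1882 (-1.23), its partner Mybpc2 668 against 1546 (-1.21) and the fast actinin Actn3 1669 against 3080.4 (-0.88). All 9 measured genes of mature fast fibres were lower, between -1.23 and -0.56, with a median of -0.68 (-0.65 after quantile normalization and -0.55 after median centring). The group called embryonic and neonatal had a median of 0.089 over 8 genes, which was -0.22 after quantile normalization. It ran from -0.024 for Tnnt3 to 0.45 for Mylpf, both of which are fast-fibre genes too. The difference between these groups therefore depends on where such genes were placed. Slow-fibre genes were mixed, from 0.35 for Tnnc1 to -1.41 and -1.43 for the slow light chains Myl2 and Myl3, both near the floor on the *FoxO6*-/- array at 100.5 and 95.9. This grouping was made after the values were seen. The contractile list as a whole had 25 of 32 genes lower, 4 by at least 2-fold, and a median of -0.24, with -0.59 in brain.

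Factors that set up muscle cells were close to 0, and their list had a median of -0.10 over 13 genes, which was 0.060 after median centring. Myod1 had 0.034, Myog 0.019, Myf5 -0.041 and the satellite cell gene Pax7 0.090. Musk, the receptor kinase that organizes the nerve-muscle synapse, had 33.6 on the *FoxO6*-/- jaw array and 182 in WT, and its log2 ratio of -2.44 rests on 1 probe set. The acetylcholine receptor subunits of the same synapse, Chrna1 and Chrng, had 0.14 and -0.16.

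**Figure D4:**
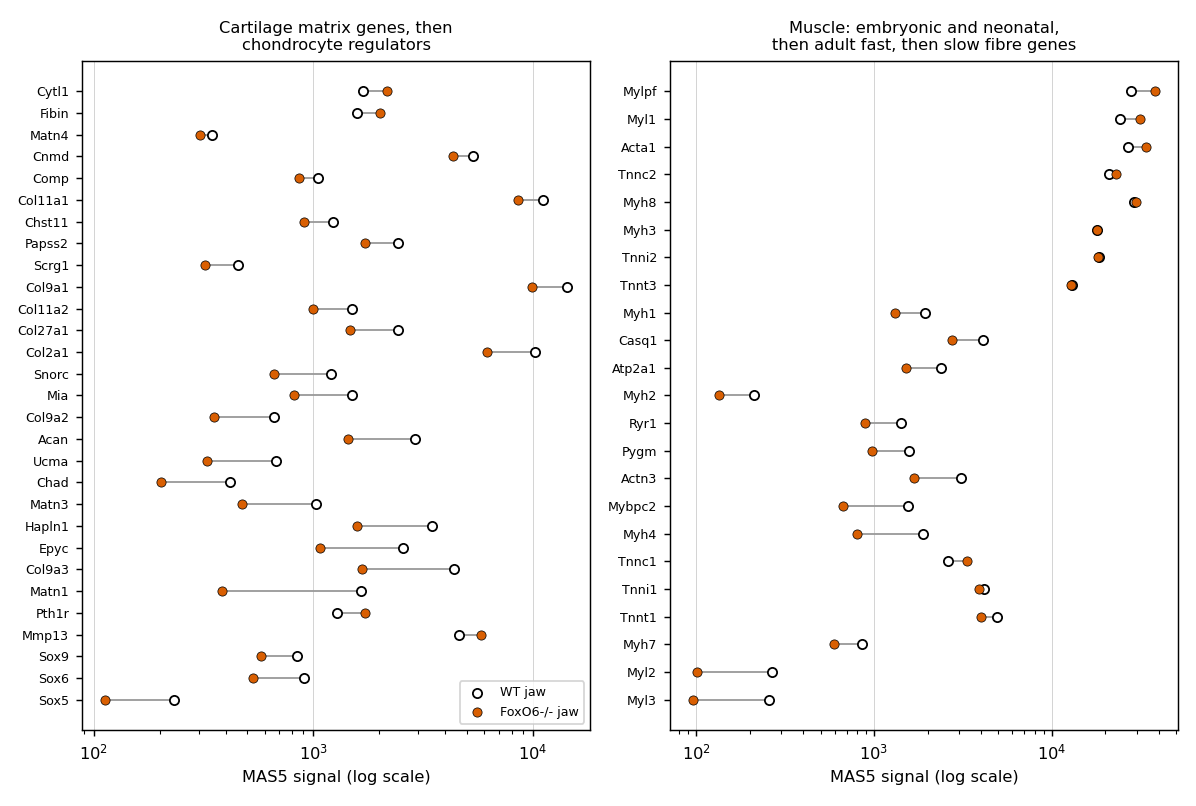
MAS5 signal (log scale) of cartilage and chondrocyte genes (left) and of muscle genes (right) on the WT (open circles) and *FoxO6*-/- (filled circles) mandible and maxilla arrays, 1 array each. Matrix genes from Matn4 to Matn1 and the SOX genes have lower signals in *FoxO6*-/-, while Cytl1, Fibin, Pth1r and Mmp13 have higher ones. Of the muscle genes, those from Mylpf to Tnnt3 are above WT or nearly equal to it, and those grouped as adult fast, from Myh1 to Myh4, are below.

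The 4 lowest log2 ratios of all were those of the nasal lining genes Bpifb9b and Bpifb5, of the clone 5430401F13Rik and of Trim34a. Bpifb9b, a secreted lipid-binding protein of the BPI fold family, had 4.62 on the *FoxO6*-/- and 6546 on the WT jaw array, and its further probe set had a log2 ratio of -7.86. Its signals in brain were reversed, with 6462 in *FoxO6*-/- and 1.72 in WT. The relative Bpifb5 had 33.4 and 1067 in jaw and 1032 and 31 in brain, and the clone 5430401F13Rik 78.1 and 1711 in jaw and 2061 and 0.747 in brain. For these genes the *FoxO6*-/- jaw and the WT brain arrays were the low ones, and the other two were high. Bpifa1, a brighter BPI fold gene, stayed high on the *FoxO6*-/- jaw array. It had 8364 there and 17216.5 in WT jaw, and 8964 in *FoxO6*-/- and 1408 in WT brain. Lcn11, a lipocalin, did not follow the BPI fold genes and was higher on both *FoxO6*-/- arrays, with 1283 against 415 in jaw and 556 against 2.29 in brain. Of 9 measured nasal secretory and metabolic genes 6 were lower in jaw, 4 of them at least 2-fold, with a median of -0.99, and the brain median was 3.07. Sult1c1 and Cyp2g1, enzymes of the olfactory mucosa, had 489 against 981 and 605 against 1203 in jaw.

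Genes of motile cilia, which beat on the respiratory lining, were lower in 12 of 13 cases, with a median of -0.66 and with 0.84 in brain. Rsph4a of the radial spoke had 131 against 331, Tekt1 of the ciliary microtubules 191 against 359 and the ciliogenesis factor Foxj1 170.0 against 226. Mucin genes of airway and gut lining, chosen after their values were seen, were lower in 4 of 5 measured members, all 4 at least 2-fold, with -1.80 for Muc2, -1.15 for Muc4, -1.06 for Muc5b and 70.8 against 142 for Muc16. Their signals on the *FoxO6*-/- array were close to or below the floor. The fifth, Muc15, had 0.87. Simple epithelium was lower too, with 10 of 14 genes and a median of -0.29. The tight junction gene Cldn3 had 161 against 398 and -1.40 to -0.82 over 4 probe sets. In the same list Car6, the carbonic anhydrase of saliva, was higher with 688 against 291.

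Olfactory neurons detect odours through a G protein cascade, whose genes were mostly lower. The G protein gamma subunit gene Gng13 had 114 on the *FoxO6*-/- jaw array and 681 in WT, the olfactory alpha subunit Gnal 151 and 393, and the cyclic nucleotide-gated channel gene Cnga2 41 and 203. Adcy3, the adenylyl cyclase between them, was higher, with 695 and 546 and log2 ratios of 0.35 and 0.40 from its probe sets. Ebf2, a transcription factor of the lineage, had 557 against 1512 and between -1.70 and -1.44 over 3 probe sets. Of 12 measured genes 11 were lower and 6 at least 2-fold lower, with a median of -0.98. The defining marker Omp was below the floor on the jaw arrays and was not measured.

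Genes that drive new neurons were lower as well. Insm1, a zinc finger factor of neuronal precursors, had 89.9 against 1220.1, Neurod1 had 102 against 533, Otx2, a head and eye patterning gene, 81 against 596 and Nhlh2 73.7 against 258. These were near or below the floor of 101 on the *FoxO6*-/- jaw array. Sox4 and Hes6 of the same list had 0.21 and 0.00567 from their brightest probe sets, but Sox4 ran from -0.48 to 0.54 over 5 probe sets and the other of Hes6 had -0.37. Sox11 had -1.03 from its brightest probe set but 0.87 at the highest of 6. The list had a median of -0.92 over 10 genes.

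Every one of the 21 measured pan-neuronal genes had a lower signal on the *FoxO6*-/- jaw array, 8 at least 2-fold, with a median of -0.85 and a range from -1.77 for the RNA-binding protein gene Elavl3 to -0.029 for the dendrite gene Map2, whose other probe set had -1.17. Snap25, a membrane fusion protein of the synapse, had 63.4 and 197 in jaw and 4661 and 3439 in brain. Stmn3, a microtubule regulator, had 380.4 and 953 in jaw and 16799 and 13272 in brain. The sum over the list was 7081 and 11275 on the *FoxO6*-/- and WT jaw arrays and 118148 and 95168 on the brain arrays, so that neuronal signal in jaw was small beside that in brain. Schwann cells, the glia of peripheral nerves, were not lower, with a median of 0.071 over 11 genes. Of the 206 genes at least 2-fold lower, 149 remained without the genes over 2-fold brighter in brain, and of the 72 higher genes 69 did. Whether an unequal share of nasal and neural tissue in the pools had a part in the cartilage or other differences was not tested.

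**Figure D5:**
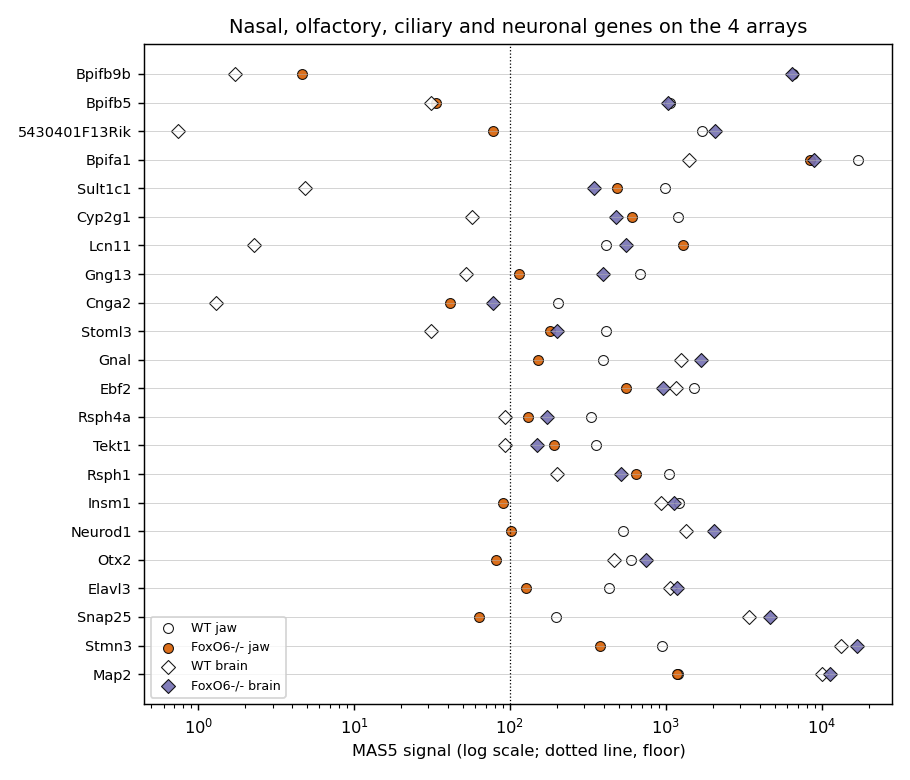
MAS5 signal (log scale) of nasal, olfactory, ciliary and neuronal genes and of the clone 5430401F13Rik on the 4 arrays of the study. Circles stand for mandible and maxilla and diamonds for brain, open for WT and filled for *FoxO6*-/-. For Bpifb9b, Bpifb5 and 5430401F13Rik the *FoxO6*-/- jaw and WT brain signals are low and the other 2 high. Neuronal genes from Elavl3 to Map2 have higher signals in brain than in jaw.

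Regulators of facial mesenchyme, the neural crest tissue that forms the jaw, were lower in 19 of 25 cases, none by 2-fold, with a median of -0.25 (-0.18 after quantile normalization, -0.11 after median centring and -0.061 with the higher floor) and of 0.31 in brain. Eya1, a transcriptional coactivator of the developing head, had 802 against 1279, with -0.67 and -0.60 from its probe sets, and the forkhead gene Foxc1 had 423 against 601, with -0.51 and -0.50. Gsc of the lower jaw had 132 against 206 and -0.65. Others of the same tissue had 0.023 for Twist1, -0.089 for Hand2 of the mandible and 0.58 for the forkhead gene Foxl2 (207 against 139), while Prrx1 lay on both sides of 0, from -0.50 to 0.47 over 4 probe sets.

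Signaling pathways had medians near 0, with single members apart. WNT genes had a median of -0.0034 over 39 members with 18 higher and 21 lower, none by 2-fold. The WNT inhibitor Sfrp1 had 939 against 1678, and all 5 of its probe sets lay between -0.87 and -0.63. The ligand Wnt11 had 205 against 366, and Notum, an enzyme that inactivates WNT ligands, 225 against 138. The ligands Wnt6, Wnt2 and Wnt10a were the highest beside Notum, with 0.68, 0.65 and 0.66, but another probe set of Wnt6 had -0.62. BMP and TGF-beta genes had a median of 0.057 over 32 members, with the ligand Bmp4 lowest at 452 against 736 (-0.70) and the BMP target Id1 highest at 2421 against 1771 (0.45). FGF genes had -0.15 over 18 members, from -0.58 for the feedback inhibitor Spry4 to 0.83 for Fgfbp1, an epithelial carrier of FGFs (2718 against 1529.6), and the median was -0.014 after median centring and 0.046 with the second-brightest probe sets. Hedgehog, Notch, retinoic acid and IGF genes had medians of -0.012 over 13, 0.033 over 14, 0.013 over 12 and 0.00676 over 17 members, and the IGF receptor Igf1r had -0.36 to -0.27 over 4 probe sets.

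Lipid and stress genes held a few of the higher genes. Me1, the malic enzyme that supplies NADPH for fatty acid synthesis, had 1728 against 743 and 1.22, with 0.37 from another probe set, and Pnpla3, a lipid droplet protein, 472 against 126. Adipocyte genes were near 0 in jaw, with a median of 0.076 over 12 genes, against -2.42 in brain, where the list summed to 36115 in *FoxO6*-/- and 114395 in WT. The fatty acid and triglyceride list had 10 of 16 genes higher, 1 of them at least 2-fold, and a median of only 0.073, with -0.71 in brain. Dgat2, which makes triglycerides, had 1854 against 1196. Thrsp, a regulator of lipogenesis, was the lowest member of this list with 424 against 843. Chac1, a glutathione-degrading enzyme of the stress response, had 417 against 191. Its list had a median of 0.12 over 17 genes, which was -0.012 with the second-brightest probe sets. Srxn1, an antioxidant enzyme, was next in the list with 362 against 217.

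Other cell types and processes had medians from -0.41 for neutrophil genes to 0.40 for mast cell genes. Endothelial genes had 12 of 16 members higher and a median of 0.20, with 326 against 262 for the vessel adhesion gene Pecam1, but 0.045 with the second-brightest probe sets and -0.27 in brain. Mast cell genes had a median of 0.40 over 5 members, led by the mast cell protease gene Cpa3 with 10443 against 7138. Neutrophil genes had -0.41 over 7 members, which was 0.058 with gene-specific probe sets, and ranged from 179.6 against 437 for Lcn2, an iron-sequestering protein also made by epithelium, to 155 against 94.8 for the antimicrobial peptide gene Camp. Tendon and fibroblast genes had 0.12 over 19 members and -0.034 after quantile normalization, with the small proteoglycan genes Kera and Lum highest at 0.76 and 0.54. Of the hypoxia and glycolysis genes, with a median of -0.034 over 14, the growth factor gene Vegfa had 365 against 619 and Pfkfb3, an activator of glycolysis, 174 against 302. Respiratory chain genes had 15 of 20 higher and a median of 0.079, and their lowest members were Cox7a1 and Cox6a2, the muscle forms of their subunits, with -0.49 and -0.34, though another probe set of Cox6a2 had 0.25. Cell cycle genes had 14 higher and 15 lower and a median of -0.000774, from -0.58 for Ube2c to 0.68 for E2f1.

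Among the 30 highest log2 ratios were also genes of no list. Cartpt, the precursor of the CART neuropeptide, had 691 on the *FoxO6*-/- jaw array and 201 in WT, and 157 and 125 in brain. Dhx38, an RNA helicase of splicing, had 184 and 25.9, and Taf15, an RNA-binding protein, 469 and 164. Both are broadly expressed, and each value rests on 1 probe set above the floor. Zap70, a kinase of the T cell receptor, had 593 and 206.

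The FoxO paralogs and genes known as FoxO targets were examined because they share the binding site of the deleted factor. Foxo3 had 3509.6 on the *FoxO6*-/- and 2698 on the WT jaw array, with 0.38 and 0.099 from its probe sets. Foxo1 had 739.5 and 949 and between -0.36 and 0.17 over 3 probe sets, and Foxo4 362 and 345. Of 25 measured genes 9 were higher and 16 lower, none by 2-fold, with a median of -0.13, which was -0.000791 after median centring. The lowest were Fbxo32 (atrogin-1, a ubiquitin ligase of muscle wasting) with 417 against 691, Sesn1, a stress-induced inhibitor of mTORC1, with 2232 against 3269.6, and the cell death gene Bcl2l11 with 643 against 941. Their other probe sets reached 0.33, -0.046 and -0.16. Txnip was higher, with 0.27 and 0.34.

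The core FoxO site, TGTTTAC on either strand, was searched for in RefSeq promoters (GRCm38.p6, 250 bases before to 50 after each start). It was found in 4.63% of 216 promoters of the at least 2-fold lower genes, in 1.59% of 63 promoters of the at least 2-fold higher genes, in 2.66% of 12607 promoters of all measured genes and in 3.65% of all 32851 promoters. The table held promoters for 159 of the 206 lower, 57 of the 72 higher and 9840 of the 12186 measured genes. A match describes the letters of a promoter and not binding. The site also occurs in the promoter of Txnip, a FoxO target that was higher (0.34), which is not shown. FoxO targets with a site were not counted. The promoters shown belong to the only higher gene with a match, Zfp874a, a zinc finger gene with 399 against 195, to 3 of the 10 lower genes with one, the cartilage gene Epyc, the neuronal factor gene Myt1l (26.6 against 227) and the olfactory gene Stoml3 (182 against 411), and to the FoxO targets Bcl2l11 and Sesn1. They are written 5′ to 3′ on the strand of the gene, with the site in capitals, and lie at chr13:67451575-67451874 (minus strand), chr10:97643818-97644117 (plus strand), chr12:29534655-29534954 (plus strand), chr3:53488457-53488756 (plus strand), chr2:128125788-128126087 (plus strand) and chr10:41810324-41810623 (plus strand), in the same order.
Zfp874a: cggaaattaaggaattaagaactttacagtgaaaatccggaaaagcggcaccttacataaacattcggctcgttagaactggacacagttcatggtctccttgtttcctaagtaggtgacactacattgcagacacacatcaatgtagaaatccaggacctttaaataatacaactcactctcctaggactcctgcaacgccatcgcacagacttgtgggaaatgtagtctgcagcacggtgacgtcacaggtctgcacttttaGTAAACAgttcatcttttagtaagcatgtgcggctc
Epyc: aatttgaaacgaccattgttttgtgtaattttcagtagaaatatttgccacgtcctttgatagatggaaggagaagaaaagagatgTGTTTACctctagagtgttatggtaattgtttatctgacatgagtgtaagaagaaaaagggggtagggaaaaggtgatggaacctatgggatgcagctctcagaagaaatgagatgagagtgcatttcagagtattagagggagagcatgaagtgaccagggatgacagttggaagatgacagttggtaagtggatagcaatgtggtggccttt
Myt1l: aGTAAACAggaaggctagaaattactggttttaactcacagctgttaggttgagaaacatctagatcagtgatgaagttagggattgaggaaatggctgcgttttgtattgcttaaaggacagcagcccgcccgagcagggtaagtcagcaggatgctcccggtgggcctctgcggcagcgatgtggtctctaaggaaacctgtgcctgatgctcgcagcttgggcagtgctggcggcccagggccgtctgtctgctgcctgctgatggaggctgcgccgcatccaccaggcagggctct
Stoml3: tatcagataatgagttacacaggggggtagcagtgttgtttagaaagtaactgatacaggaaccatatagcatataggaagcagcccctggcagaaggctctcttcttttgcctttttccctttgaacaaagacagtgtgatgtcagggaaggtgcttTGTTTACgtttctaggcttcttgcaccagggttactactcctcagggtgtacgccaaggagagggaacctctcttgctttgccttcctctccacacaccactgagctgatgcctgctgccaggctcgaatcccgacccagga
Bcl2l11: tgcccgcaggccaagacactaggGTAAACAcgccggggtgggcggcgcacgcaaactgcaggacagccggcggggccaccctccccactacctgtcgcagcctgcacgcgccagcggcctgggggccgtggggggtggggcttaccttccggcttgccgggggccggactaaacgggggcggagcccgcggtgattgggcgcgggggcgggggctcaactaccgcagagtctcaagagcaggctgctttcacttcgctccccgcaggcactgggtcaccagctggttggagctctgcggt
Sesn1: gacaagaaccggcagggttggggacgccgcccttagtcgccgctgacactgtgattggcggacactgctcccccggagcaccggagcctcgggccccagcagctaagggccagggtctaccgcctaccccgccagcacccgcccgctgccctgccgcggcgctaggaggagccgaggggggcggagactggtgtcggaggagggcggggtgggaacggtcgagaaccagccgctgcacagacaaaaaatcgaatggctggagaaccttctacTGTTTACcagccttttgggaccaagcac

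Some genes differed in the same direction in both tissues. Of 12327 genes measured in brain, 139 were past 2-fold in the higher and 250 in the lower direction there. Of 11494 genes measured in both, 14 were at least 2-fold lower and 5 at least 2-fold higher on the *FoxO6*-/- array in jaw and in brain, 24 were lower in jaw and higher in brain, and none was higher in jaw and lower in brain. The 5 higher ones were Lcn11, Mt4, Zfp874a, Msl3l2 and Gm5802. Ces1d, a carboxylesterase, had 159.6 and 666 in *FoxO6*-/- and WT jaw and 250.0 and 1172 in brain, and all 3 of its probe sets were at least 2-fold lower in jaw. Hddc3, a phosphohydrolase, had 165 and 574 in jaw and 191 and 752 in brain. Trim34a had 2.76 and 207 in jaw and 20 and 171 in brain, where its mean was below the floor. Erdr1 and Tspan12, chosen like Hddc3 after their values were seen, had 528 and 1437 and 438 and 1031 in jaw, and both were also lower in brain, with -1.25 and -1.45.

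Different probe sets of a gene gave a check within the arrays. For 4924 genes more than 1 probe set reached the floor, and of these genes 2507 had all of them on the same side of 0. Among the 72 higher genes 8 had several, all 8 with at least 1 probe set short of 2-fold and 5 with all of them above 0. Rian, a non-coding RNA gene of an imprinted cluster, ran from -0.60 to 1.31 over 4 probe sets and had 7112 against 2863 from the brightest. Of the 206 lower genes 53 had several probe sets, 46 with all of them below 0 and 17 with all of them at least 2-fold lower. These 17 were Bpifb9b, Ces1d, Insm1, Neurod1, Ebf2, Gnal, Stoml3, Mapk10, Septin3 and Stmn3, which are described above or belong to the pan-neuronal list, and Abca13, Clic6, Fam107a, Fank1, Flrt1, Fstl5 and Pcdh8. Clic6, an intracellular chloride channel protein, had 599 against 1497, and Fstl5, a follistatin-like gene, 591 against 2152, and both were higher in *FoxO6*-/- brain, with 1.11 and 1.12. Pcdh8, a protocadherin of nervous tissue, had 107 against 466.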

How the data were processed

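RNA of mandible and maxilla (4 animals combined per array) and of brain was prepared from *FoxO6*-/- and WT mice, labelled by the submitters and hybridised to 4 Affymetrix arrays. The deposited values are signal intensities that the authors computed with MAS5, which summarises the probes of a set and scales every array to a common target. They are on a linear scale, and no source used here states the scaling target. The mean signal after trimming 2% at each end was 500 on each of the 4 arrays. The precision is limited by the number of arrays. Probe sets were named from GEO's platform annotation, and 18193 genes had a probe set annotated to 1 gene only. The brightest probe set over the 4 arrays was used for each gene, and genes with a mean jaw signal under 101 were left out. Log2 ratios of the signals were computed in Python 3.11.15 with pandas 2.3.3 and numpy 2.4.6, with no pseudocount and no test, because each group is 1 array. The ratio step was run on WT signals multiplied by known factors, which checks the code and not the data. A 2-fold difference was taken as the limit. Named genes were any measured member of the gene lists, the 30 largest log2 ratios in each direction and the genes whose probe sets, 2 or more, were all past 2-fold the same way, besides genes said in the text to be chosen later. The members and lists were chosen with earlier results of these data known. Alternatives covered quantile normalization, median centring, the floor, the choice of probe set, and leaving out genes brighter in brain.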

Additional observations from a re-analysis of the deposited data

Results flagged for a closer look

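For 14 gene lists the median log2 ratio of *FoxO6*-/- over WT was at least 0.1 from 0 in opposite directions on the jaw and brain arrays, and with 1 array per group this difference between the tissues was not tested. In tissues of the nose and skeleton, the nasal secretory list had -0.99 in jaw and 3.07 in brain, motile cilia -0.66 and 0.84, cartilage matrix -0.73 and 0.73, and simple and glandular epithelium -0.29 and 0.26. Neural lists ran the same way. Olfactory neuron genes had -0.98 in jaw and 0.29 in brain, neurogenic progenitor genes -0.92 and 0.29, pan-neuronal genes -0.85 and 0.33, forebrain neuron genes -0.36 and 0.24, and astrocyte, radial glia and oligodendrocyte genes -0.31 and 0.36. Smaller differences of this direction were found for craniofacial mesenchyme regulators (-0.25 and 0.31), FGF genes (-0.15 and 0.11), early tooth regulators (-0.11 and 0.23) and skeletal muscle regulators (-0.10 and 0.15). Endothelial genes had 0.20 in jaw and -0.27 in brain, the opposite order.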

How the results depend on the processing

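The counts of genes at least 2-fold higher and lower, 72 and 206, depended on scaling and on low signals. Quantile normalization gave 122 and 155, median centring 124 and 130, no floor 1415 and 1432, and a floor at the 75th percentile, which keeps 7247 genes, 24 and 45. All 72 higher genes were kept under both scalings. The second-brightest probe set, which exists above the floor for 4937 genes, gave 31 and 103, of which 1 and 20 were shared with the main counts, and the cause was not tested. Raised low signals, the mean of all probe sets, gene-specific probe sets and leaving out genes brighter in brain moved no count by over 1.5 times. Of the list medians at least 0.1 from 0, these reversed or came closer than 0.1, for causes that were not tested. After quantile normalization, early tooth regulators had -0.085, tendon and fibroblast genes -0.034, muscle regulators -0.044 and heat shock genes 0.056. After median centring, early tooth regulators had 0.019, muscle regulators 0.060, smooth muscle -0.053, FoxO genes -0.000791 and FGF genes -0.014. Without a floor, astrocyte and glial genes had 0.065 and erythroid genes 0.60, against -0.36. With the higher floor, muscle regulators had -0.041, craniofacial regulators -0.061 and FoxO genes -0.090. The second-brightest probe sets gave -0.041 for early tooth regulators, 0.084 for osteoblast genes, 0.00550 for tendon, -0.077 for astrocyte and glial genes, -0.11 for macrophages, 0.045 for endothelium, -0.046 for FoxO genes, 0.046 for FGF genes, 0.029 for immediate early genes and -0.012 for heat shock genes. The mean of all probe sets gave 0.047 for tendon, 0.090 for macrophages, -0.072 for FGF genes and 0.053 for heat shock genes, and gene-specific probe sets 0.058 for neutrophils, -0.083 for FoxO genes and -0.092 for FGF genes. The other 307 medians stayed on their side of that limit. A further 33, which were closer to 0 than 0.1, moved past it, and their sign was not compared. No named gene past 2-fold changed sign under these settings, but single further probe sets of Rian and Sox11 had the opposite sign. No paired analysis was possible because each group is 1 array.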
